A study of Canis lupus familiaris with 22 samples.

Results

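The mitotic spindle and division genes described here are 40 genes whose products drive entry into mitosis, build the spindle, attach and separate the chromosomes and divide the cell. They were taken by name. A gene was measured where at least 1 probe set of the array listed it as the only gene symbol in the platform annotation. That held for 36 of the 40 genes, through 75 probe sets, out of 15115 genes measured in all. No probe set named CCNB1, MAD2L1, CENPE or MKI67 alone here, so these 4 genes have no value.

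The samples were 18 biopsies of naturally occurring invasive urothelial carcinoma (iUC), the muscle-invading cancer of the bladder lining, taken through a cystoscope from pet dogs before any therapy and graded high on histopathology, and 4 normal bladders taken fresh from healthy dogs without tumors. A cystoscopic biopsy samples the tumor from the bladder cavity, the normal bladders came from dogs matched to the tumor dogs in age per the study's methods, single ages were not used here, and no group was treated. Total RNA of each sample was amplified, labelled and hybridized to 1 Affymetrix canine array, and each sample is a separate biological replicate per the labels. The deposited values are on the log2 scale and are centred for each probe set on the median of the 22 arrays. A value of 0 is therefore the middle array for that gene, values cannot be compared between genes as levels, and a gene that is expressed nowhere cannot be recognized. No filter on low values was possible, so all 36 measured genes entered every count.

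Cell division is run by kinases that are switched on in order. Cyclin-dependent kinase 1 with its cyclins opens mitosis, Aurora and Polo-like kinases shape the spindle, and kinetochores clamp each chromosome to spindle microtubules. A checkpoint holds the cell until every kinetochore is attached, after which the anaphase-promoting complex destroys securin and the cyclins, sister chromatids part, and a contractile ring pinches the cell between the separated chromosomes. Most of these genes are transcribed late in the cell cycle, FOXM1 being one of the transcription factors that turn them on, so their messages are plentiful in dividing tissue and scarce in a resting urothelium or a resting muscle wall.

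Several features of the arrays bear on what follows. The Tag control probe sets, which target artificial sequences, averaged 0.277 to 0.46 on 7 iUC arrays (replicates 3, 4, 5, 6, 7, 13 and 18), -0.128 to 0.131 on the other 11 iUC arrays and -0.215 to -0.077 on the 4 normal arrays. The 7 are called the high Tag arrays below and the 11 the low Tag arrays. The GAPDH and beta-actin control probe sets averaged -1.28 to -0.48 on the high Tag arrays, -0.79 to 0.38 on the low Tag arrays and -0.55 to 0.41 on the normal arrays. The endings of the sample descriptions fall into 2 kinds, with all 18 iUC samples and normal replicate 1 sharing one and normal replicates 2, 3 and 4 the other, so that ending and tissue overlap except in 1 array. Normal replicates 3 and 4 correlated at r = 0.934 over all probe sets other than controls, against 0.761 for the next closest pair of normal bladders. All 12 smooth muscle markers were lower in iUC, 10 of them past the thresholds given below, their mean lying between -0.71 and 1.51 in iUC and between 3.06 and 4.86 in normal bladder. All 12 urothelial markers were higher in iUC, 8 of them past the thresholds, with means of -1.41 to 0.85 in iUC and -3.80 to -0.44 in normal bladder. Fibroblast markers passed the thresholds as lower in 8 of 9 genes and as higher in 1, with means of -1.41 to 0.93 in iUC and 1.52 to 2.94 in normal bladder, and lower endothelial, macrophage and neutrophil markers did so in 3 of 7, 2 of 7 and 1 of 3 genes. The median log2 fold change was -0.07 over 9 T and NK cell markers and 0.15 over 5 B and plasma cell markers. In bulk tissue fewer cells of a type and less RNA per cell cannot be told apart.

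Many division genes were higher in iUC than in normal bladder and none was lower. Of the 36 measured, 20 (55.6%) passed both an adjusted p of 0.05 or below (limma, Benjamini-Hochberg over all 15115 genes) and a fold change of at least 2 upward, which is what "called" means throughout. Over all genes 3.68% were called higher. None of the 36 was called lower, against 8.64% of all genes. The log2 fold change, iUC minus normal bladder, was above 0 for all 36 and had a median of 1.14, beside a median of 0.079 over all genes. Called members spanned 1.03 (AURKA) to 2.84 (TOP2A), and the 16 not called 0.12 (KIF14) to 1.60 (SPC25). In 20 members (55.6%) every one of the 18 iUC samples lay above the highest of the 4 normal bladders, which was the case for 3.22% of all genes. These 20 were 14 of the called members and 6 that missed the fold threshold, namely KIF23, KIF4A, CENPA, PRC1, UBE2C and KIF2C. The differences in smooth muscle, urothelial, fibroblast, endothelial, macrophage and neutrophil markers given above lay between the same groups, and their part in these counts was not tested.

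**Figure D1:**
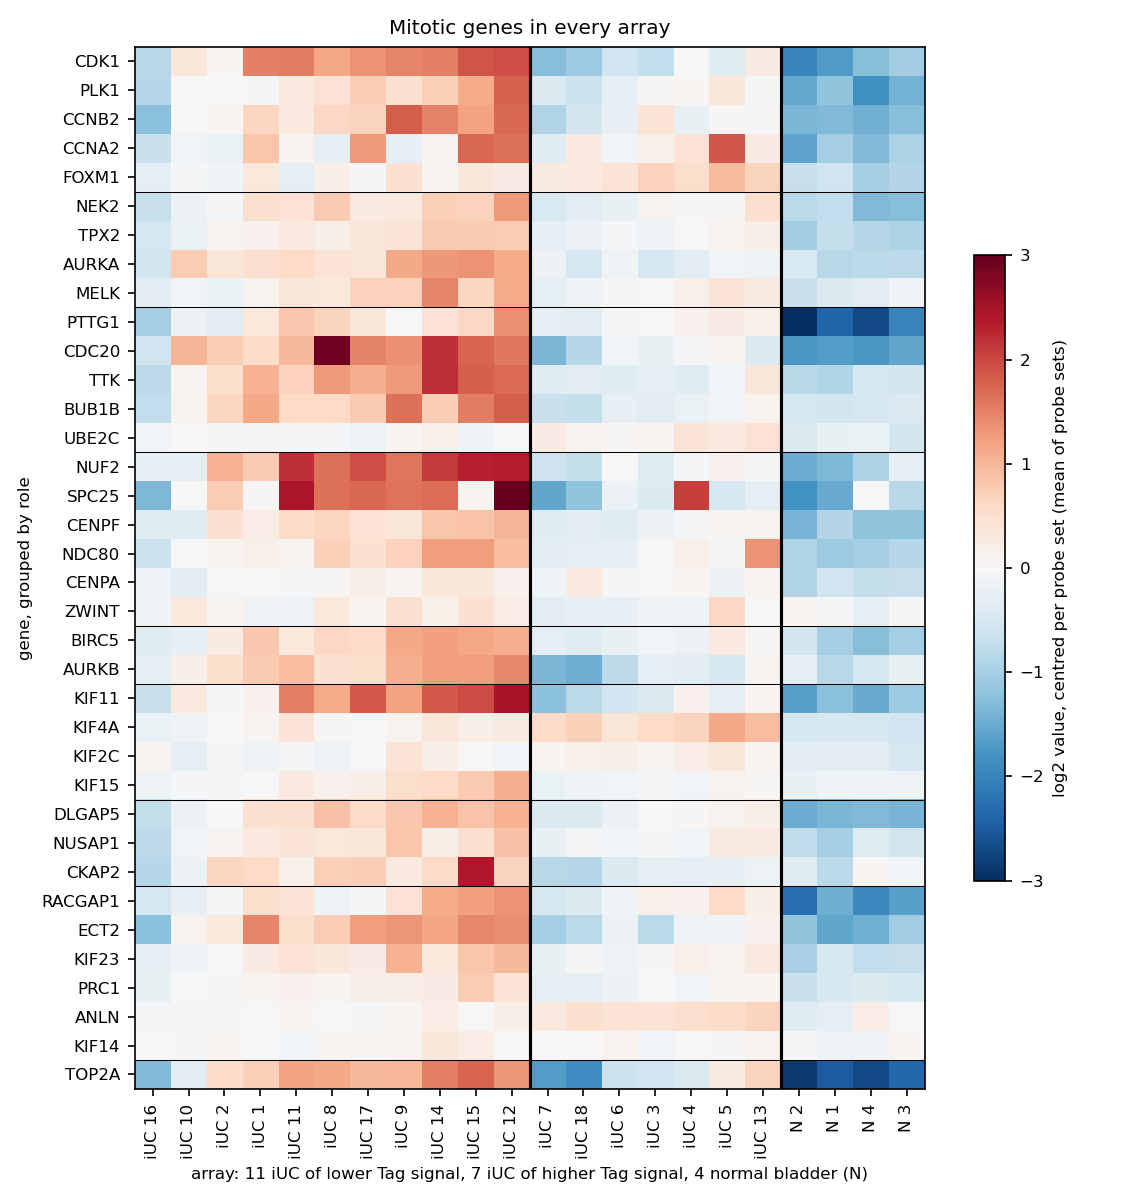
Centred log2 value of each of the 36 measured division genes (down the page, by role) in each array (across, iUC left of normal bladder, the high and low Tag iUC arrays set apart), with colour running from low to high. The 4 normal bladders are low for nearly every gene, and iUC samples range from near the normal bladders to far above them.

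With the label ending entered as a block, so that the comparison rests on normal replicate 1, the log2 fold change stayed above 0 for all 36 genes with a median of 1.10, and 1 gene, PTTG1, was called (log2 fold change 2.57, limma adjusted p = 0.0042). In that fit 0.0992% of all genes, 15 in number, were called higher. Label ending and tissue are otherwise the same division of the samples and cannot be told apart. Averaging normal replicates 3 and 4 into 1 sample left 18 called, beside 2.06% of all genes called higher. Leaving out each normal bladder in turn left 16 (without replicate 4) to 19 (without replicate 1), beside 1.97% to 4.74% of all genes. Across those 4 repeats 15 of the 20 stayed called each time, and AURKA, TTK, TPX2, NUF2 and FOXM1 did not.

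**Figure D2:**
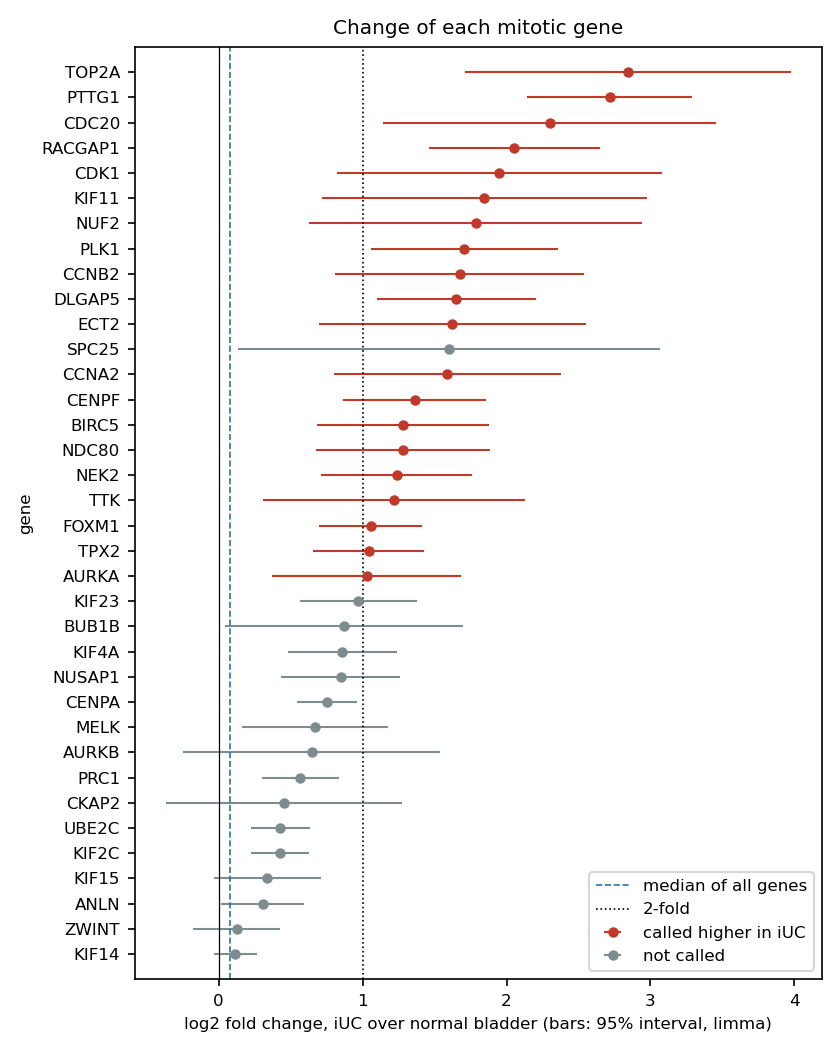
Log2 fold change of each measured division gene, iUC minus normal bladder, with its 95% confidence interval from the limma fit, ordered by log2 fold change and marked as called or not called. All 36 points lie above 0, from 0.12 for KIF14 to 2.84 for TOP2A.

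The cyclins and kinases that open mitosis, with FOXM1, were called higher in 5 of 5 measured genes, with a median log2 fold change of 1.68. CDK1, the kinase whose activity defines mitosis, ranged over -1.28, 0.30 and 1.93 (lowest, median and highest) in iUC, against -1.70, -1.98, -1.04 and -1.28 in normal bladders. Most tumors were well above the normal range, but 2 iUC samples reached down into it. The log2 fold change was 1.95 ± 0.54 (SE), a 3.87-fold difference (limma adjusted p = 0.00917).

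Both measured cyclins separated the tissues fully. CCNB2, a B-type cyclin that partners CDK1, ran over -1.26, 0.18 and 1.83 in iUC and was -1.31, -1.38, -1.28 and -1.45 in normal bladders. The 4 normal values sat within a narrow band, with the lowest tumor just above it and the rest spread over about 3 log2 units. CCNB2 was 3.19-fold higher in iUC (log2 1.68 ± 0.42, SE, limma adjusted p = 0.00425). CCNA2, the cyclin of S phase and early mitosis, had -0.67, 0.12 and 1.86 in iUC and -1.02, -1.58, -0.94 and -1.32 in normal bladders. Its log2 fold change was 1.59 ± 0.38 (limma adjusted p = 0.00326).

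PLK1, a kinase needed for spindle formation, chromosome separation and cytokinesis, had -0.85, 0.05 and 1.78 in iUC and -1.22, -1.54, -1.41 and -1.84 in normal bladders. There was no overlap, and PLK1 was 3.26-fold higher in iUC (log2 1.71 ± 0.31, SE, limma adjusted p = 0.000304). FOXM1 spanned a narrower range, with -0.29, 0.28 and 0.95 in iUC and -0.61, -0.70, -0.89 and -0.9965 in normal bladders. Again no sample overlapped, and the difference was 2.08-fold (log2 1.06 ± 0.17, limma adjusted p = 9.35e-05). Near the fold threshold the FOXM1 call was not stable, the log2 fold change being 0.99 without normal replicate 4. It was 0.95 after quantile normalization and 0.88 over the low Tag tumors alone, also below the threshold.

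Among the spindle pole and other mitotic kinases 3 of 4 genes were called. AURKA, the Aurora kinase of centrosomes and spindle poles, had -0.56, 0.36 and 1.35 in iUC and -0.83, -0.46, -0.79 and -0.81 in normal bladders. Normal replicate 2 lay above 3 of the 18 tumors, so the groups overlapped. AURKA was 2.04-fold higher (log2 1.03 ± 0.32, SE, limma adjusted p = 0.0164), the smallest of the called differences. It fell to 0.99 without normal replicate 1 and to 1.00 without replicate 3 or 4, which took it below the fold threshold. TPX2, which binds AURKA on spindle microtubules and activates it, was 2.06-fold higher with no overlap (log2 1.04 ± 0.19, limma adjusted p = 0.000228), and reached 0.99 without normal replicate 2. NEK2, a kinase that helps centrosomes part, was 2.36-fold higher (log2 1.24 ± 0.25, limma adjusted p = 0.000892). MELK, a kinase that peaks in mitosis, passed the adjusted p but not the fold threshold (log2 0.67 ± 0.24, limma adjusted p = 0.0382). Its 3 probe sets ranged from 0.01 to 1.31.

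Spindle checkpoint and anaphase genes held 2 of the 3 largest differences. PTTG1, the securin that guards separase until anaphase, had -1.01, 0.13 and 1.37 in iUC and -2.41, -3.11, -2.003 and -2.69 in normal bladders. The lowest tumor lay nearly 1 log2 unit above the highest normal bladder. PTTG1 was 6.57-fold higher (log2 2.72 ± 0.28, SE, limma adjusted p = 2.29e-07).

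CDC20, which activates the anaphase-promoting complex once the checkpoint is satisfied, had -1.36, 0.64 and 2.93 in iUC and -1.69, -1.75, -1.56 and -1.75 in normal bladders. Normal bladders were close to one another while tumors ranged over more than 4 log2 units, the lowest of them only just above normal. The fold change was 4.92 (log2 2.30 ± 0.56, limma adjusted p = 0.00351).

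TTK, the kinase at the head of the checkpoint, was 2.33-fold higher in iUC (log2 1.22 ± 0.44, limma adjusted p = 0.0357), with 17 of 18 tumors above all normal bladders. That call was the least stable, since the adjusted p was above 0.05 without any 1 of the 4 normal bladders, at log2 fold changes of 1.15 to 1.29. BUB1B, another checkpoint kinase, lay above all normal bladders in 15 of 18 tumors but did not pass (log2 0.87 ± 0.40, limma adjusted p = 0.0863). UBE2C, the ubiquitin-conjugating enzyme that works with the anaphase-promoting complex, differed little. Every tumor lay above every normal bladder, at a log2 fold change of 0.43 ± 0.10 (limma adjusted p = 0.00223), under the fold threshold.

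Kinetochore and centromere genes were called in 3 of 6 cases, with a median log2 fold change of 1.32. NUF2, NDC80 and SPC25 encode parts of the 4-subunit complex that grips microtubules. NUF2 had -0.71, 0.45 and 2.37 in iUC and -1.34, -1.50, -0.27 and -0.95 in normal bladders. Normal replicate 3 was higher than 4 of the 18 tumors, so the groups overlapped. The fold change was 3.45 (log2 1.79 ± 0.56, SE, limma adjusted p = 0.0178), and the adjusted p was above 0.05 without normal replicate 2 or 4, at log2 1.62 and 1.81. NDC80 separated the groups fully and was 2.43-fold higher (log2 1.28 ± 0.29, limma adjusted p = 0.0022).

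SPC25 varied widely in both tissues, from -1.55 to 3.35 in iUC and from -1.83 to -0.01 in normal bladders. Its log2 fold change of 1.60 ± 0.71 did not pass (limma adjusted p = 0.0778), with 11 of 18 tumors above all normal bladders. CENPF, a large kinetochore protein of G2 and mitosis, was 2.57-fold higher with no overlap (limma adjusted p = 0.000195). CENPA, the histone H3 variant that marks centromeres, was even across tumors, from -0.34 to 0.35, and entirely above the normal bladders at -0.90 to -0.56. That gave the second smallest adjusted p of all members (1.04e-05) at a log2 fold change of 0.75 ± 0.10, short of the threshold. ZWINT, a kinetochore scaffold protein, did not differ beyond its error (log2 0.13 ± 0.15, limma adjusted p = 0.499).

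The chromosomal passenger complex corrects faulty attachments and later works at the midzone. BIRC5 (survivin), its targeting subunit, was 2.43-fold higher in iUC without overlap (log2 1.28 ± 0.29, limma adjusted p = 0.00195). AURKB, its kinase, had -1.46, 0.32 and 1.43 in iUC and -0.83, -0.26, -0.22 and -0.50 in normal bladders. The lowest AURKB values of all came from tumors, and the groups overlapped widely. The log2 fold change was 0.65 ± 0.43 and did not pass (limma adjusted p = 0.233). Over the 11 low Tag arrays alone AURKB was called at 1.19 ± 0.26 (limma adjusted p = 0.00315), while over the 7 high Tag arrays it was -0.21 ± 0.28 (limma adjusted p = 0.525).

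Of the 4 spindle motors 1 was called. KIF11, the kinesin that pushes the poles apart to make the spindle bipolar, had -1.23, 0.13 and 2.48 in iUC and -1.25, -1.62, -1.10 and -1.51 in normal bladders. Just 1 tumor fell within the normal range, and the difference was 3.60-fold (log2 1.85 ± 0.54, SE, limma adjusted p = 0.0127). KIF4A, a chromosome-bound kinesin, and KIF2C, which takes microtubules apart at kinetochores, separated the tissues in every sample but by less than 2-fold, at log2 0.86 ± 0.18 and 0.43 ± 0.10. KIF15, a kinesin that assists KIF11, did not pass (log2 0.34 ± 0.18, limma adjusted p = 0.135).

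DLGAP5, which stabilizes spindle microtubules close to the chromosomes, had -0.72, 0.14 and 1.05 in iUC and -1.37, -1.50, -1.40 and -1.32 in normal bladders. The groups stood well apart, with the normal bladders close to each other, and the difference was 3.14-fold (log2 1.65 ± 0.27, SE, limma adjusted p = 8.08e-05). Its 3 probe sets did not agree, running from -0.04 to 2.81. NUSAP1, a bundler of spindle microtubules, passed the adjusted p at a log2 fold change of 0.85 ± 0.20 (limma adjusted p = 0.00276). CKAP2, a spindle pole protein, had a wide range in both tissues and did not pass (log2 0.45 ± 0.40, limma adjusted p = 0.36).

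Cytokinesis genes were called in 2 of 6 cases. RACGAP1, the GTPase-activating subunit of the centralspindlin complex, had -0.50, 0.14 and 1.34 in iUC and -1.47, -2.25, -1.62 and -1.93 in normal bladders. No sample overlapped, and RACGAP1 was 4.15-fold higher (log2 2.05 ± 0.29, SE, limma adjusted p = 1.59e-05). ECT2, the exchange factor that centralspindlin recruits to activate RhoA for the contractile ring, had -1.24, 0.22 and 1.46 in iUC and -1.56, -1.20, -1.05 and -1.43 in normal bladders. A single tumor fell among the normal bladders, and the difference was 3.08-fold (log2 1.62 ± 0.45, limma adjusted p = 0.00843).

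KIF23, the motor subunit of centralspindlin, stopped just under the fold threshold with no overlap (log2 0.97 ± 0.20, limma adjusted p = 0.000749), and crossed it at 1.05 without normal replicate 1. PRC1, which crosslinks midzone microtubules, was also fully separated at log2 0.57 ± 0.13. Its 4 probe sets spread from -0.00 to 1.40. ANLN (anillin, a scaffold of the contractile ring) and KIF14 (a midbody kinesin) did not pass, at log2 0.31 ± 0.14 and 0.12 ± 0.07.

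TOP2A, the topoisomerase that untangles sister chromatids, had the largest difference of all members. It ran over -1.85, 0.61 and 1.75 in iUC and was -2.50, -2.87, -2.35 and -2.71 in normal bladders. Every tumor was above every normal bladder, by 0.5 for the lowest tumor and by more than 4 log2 units for the highest. The difference was 7.18-fold (log2 2.84 ± 0.55, SE, limma adjusted p = 0.000471).

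Probe sets of one gene gave different sizes but no opposing calls. Taken singly, 35 of the 75 probe sets were called higher and 0 lower. The share over all probe sets was not counted. The 6 genes CENPA, KIF23, KIF4A, MELK, NUSAP1 and PRC1 had a called probe set without being called as genes. Conversely, the called genes AURKA, CENPF, DLGAP5, FOXM1, NDC80, NUF2 and TPX2 each had a probe set that was not called. When each gene was represented by its probe set of largest variance, 25 members were called, all 20 of the original among them. The share of all genes called higher was then 6.19%, against 3.68%.

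The tumors spread widely in these genes. The mean over the 36 genes ran from -0.545 (iUC replicate 16) through a median of 0.194 to 1.126 (iUC replicate 12), against -0.941, -1.05, -0.814 and -0.919 in normal replicates 1 to 4. No tumor mean reached the normal range. Replicate 16 had 23 of the 36 genes above all normal bladders, replicate 14 had all 36, and the median tumor had 33. The low end was shared across genes, since replicate 16 was the lowest tumor for 20 members and replicate 7 for 6. The high end was held by replicate 12 for 13 members and by replicate 14 for 7.

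**Figure D3:**
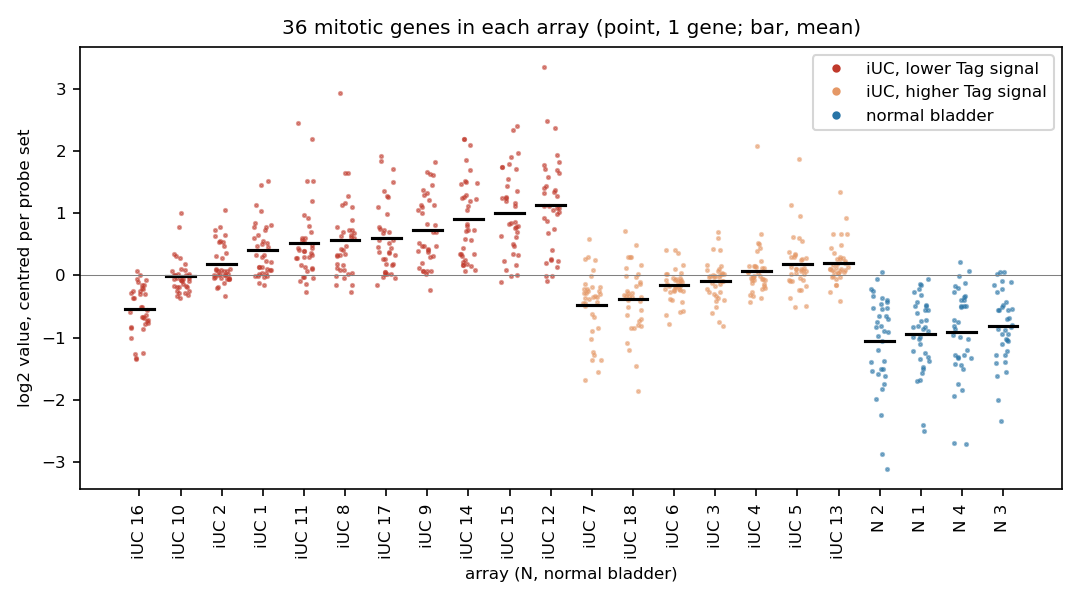
Mean centred log2 value over the 36 measured division genes as a bar and the single genes as points in each array, iUC left of normal bladder, with the high and low Tag iUC arrays marked. Tumor means run from -0.545 to 1.126 and the 4 normal bladders from -1.05 to -0.814.

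In the typical member the standard deviation over the 18 tumors was 0.553, against 0.335 for the typical gene of the array, and 29 of the 36 exceeded that typical gene. In the 4 normal bladders it was 0.209, beside 0.236 for the typical gene. Restricting to the low Tag tumors left the members' median at 0.558 while the typical gene fell to 0.21, and the high Tag tumors gave 0.261 and 0.181. SPC25 varied most among tumors (SD 1.41) and KIF14 least (SD 0.108). A range above 2 log2 units between the lowest and highest tumor was seen in 15 members. That range spans both Tag sets, and the share of all genes with such a range was not counted.

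Part of the spread lay between the high and low Tag arrays. The mean over members was -0.088 ± 0.264 on the 7 high Tag arrays and 0.498 ± 0.483 on the 11 low Tag arrays (SD), and 31 members (86.1%) averaged lower on the high Tag arrays, as did 50.9% of all genes. The mean over all genes was -0.097 to -0.055 on the high Tag arrays and 0.069 to 0.106 on the low Tag arrays. CDK1 had a median of -0.59 on the high Tag arrays and 1.46 on the low Tag arrays, and CDC20 had -0.22 and 1.37. The 5 members that went the other way were FOXM1, KIF4A, ANLN, UBE2C and KIF2C. FOXM1 averaged 0.54 on high Tag arrays and 0.08 on low Tag arrays, and ANLN ran from 0.29 to 0.67 on high Tag arrays and from -0.06 to 0.22 on low Tag arrays. Whether the arrays or the tumors made these sets differ was not tested.

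Each set was also compared with the normal bladders by itself. Over the 11 low Tag tumors 23 members were called, gaining BUB1B, SPC25, AURKB and KIF23 and losing FOXM1 (log2 0.88 ± 0.14), with a median log2 fold change of 1.40, and 5.23% of all genes were called higher. Over the 7 high Tag tumors 12 were called, 11 of them among the original 20 and KIF4A besides (log2 1.23 ± 0.13), with a median of 0.81 and 33 of 36 above 0, while 7.16% of all genes were called higher. TOP2A was 3.38 ± 0.43 over low Tag tumors and 2.00 ± 0.44 over high Tag tumors, and PTTG1 was 2.83 ± 0.33 and 2.53 ± 0.19 (log2 fold change ± SE).

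Division genes moved together from tumor to tumor. Correlations are given within each Tag set, since the sets differ in level, and as descriptions, because all genes share the same arrays. Across the 630 pairs of members the median Pearson r was 0.715 over the 11 low Tag tumors, with 98.4% of pairs positive, and 0.659 over the 7 high Tag tumors, with 93.8% positive. Over pairs of all genes the medians were 0.02 and 0.03.

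**Figure D4:**
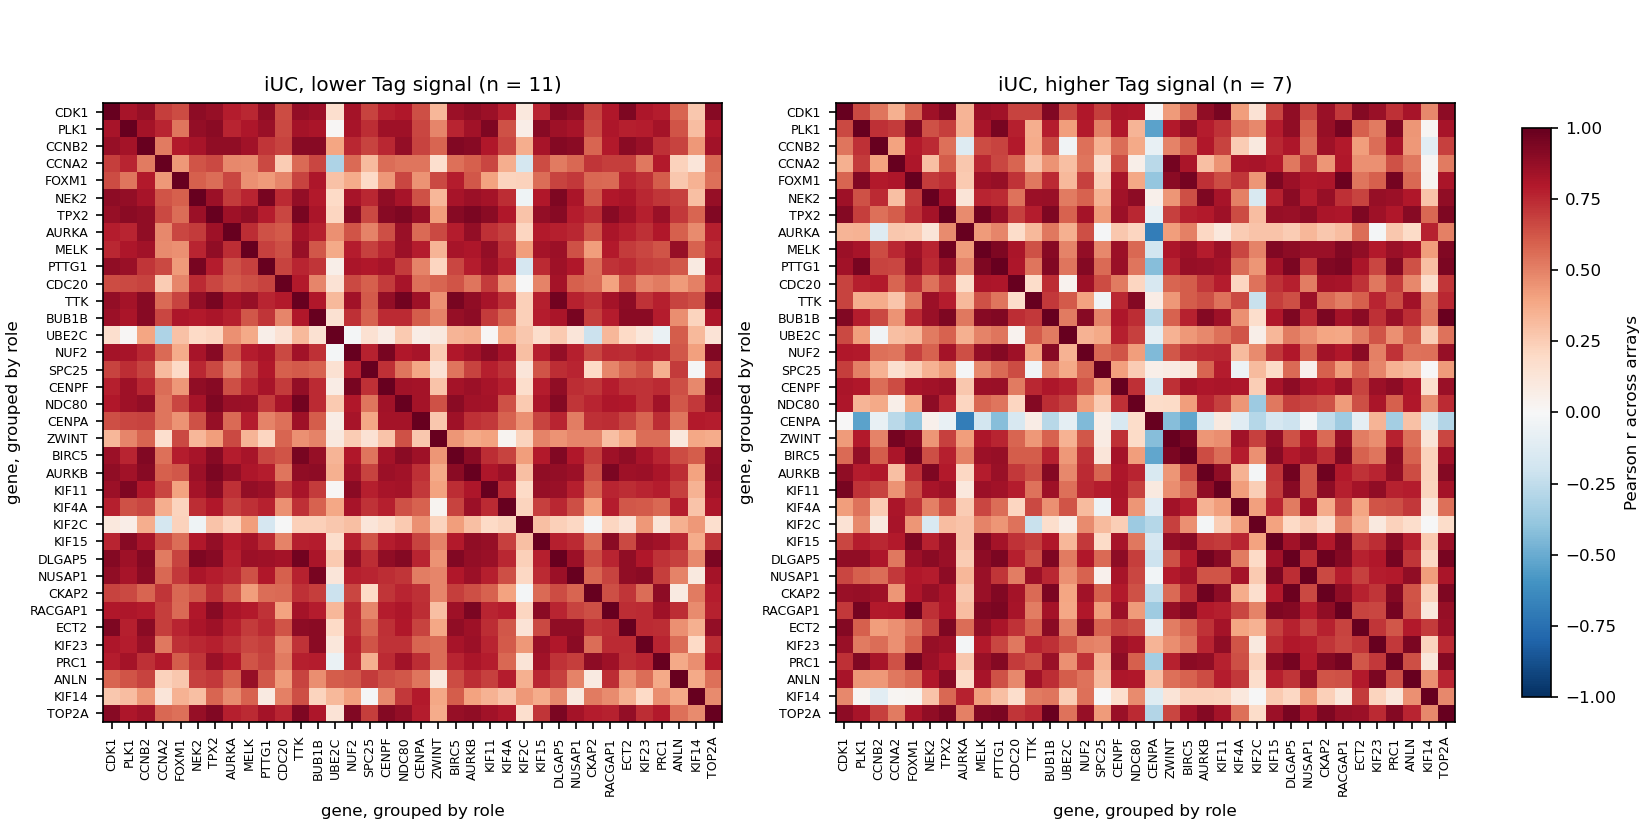
Pearson r between each pair of the 36 measured division genes across the 11 low Tag and, separately, the 7 high Tag iUC arrays, genes ordered by role. Most cells are positive, with medians of 0.715 and 0.659, and the rows of UBE2C and KIF2C stand out as pale in the low Tag panel.

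Each member was also set against the mean of the other 35. The median r was 0.864 in low Tag and 0.842 in high Tag tumors, and 19 members exceeded 0.8 in both. TPX2 followed the rest most closely in the low Tag tumors (0.968, and 0.941 in the high Tag tumors) and DLGAP5 in the high Tag tumors (0.972). UBE2C (0.182) and KIF2C (0.208) followed least in the low Tag tumors, and CENPA (-0.192) in the high Tag tumors. These 3 were also among the members with the smallest spread between tumors.

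Partner proteins were compared directly. The median r over all 630 pairs of members, given above, was 0.715 in the low Tag and 0.659 in the high Tag tumors. Whether partners correlated more closely than other members was not tested. Of 10 pairs chosen, 8 could be measured, CCNB1 with CDK1 and TOP2A with MKI67 lacking a probe set for 1 partner, and each was computed in both Tag sets, giving 16 relations. AURKB and BIRC5, 2 subunits of the passenger complex, had r = 0.906 over the 11 low Tag tumors (two-sided permutation test, p = 0.0003, adjusted p = 0.005) and Spearman's rho = 0.827 (permutation p = 0.003, adjusted p = 0.034). It was 0.863 without the 2 tumors farthest from the median AURKB. AURKA with its activator TPX2 had r = 0.846 (permutation p = 0.003, adjusted p = 0.011) and rho = 0.745 (permutation p = 0.012, adjusted p = 0.037), and r = 0.642 without the farthest 2 tumors.

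NDC80 with NUF2 had r = 0.80 (permutation p = 0.003, adjusted p = 0.011) and rho = 0.755 (permutation p = 0.01, adjusted p = 0.037), with r = 0.693 without the farthest 2. CCNA2 with CDK1 had r = 0.693 (permutation p = 0.001, adjusted p = 0.009) and rho = 0.80 (permutation p = 0.004, adjusted p = 0.034), with r = 0.583 without the farthest 2. The centralspindlin pair RACGAP1 and KIF23 had r = 0.745 (permutation p = 0.011, adjusted p = 0.035) and rho = 0.709 (permutation p = 0.018, adjusted p = 0.049), with r = 0.562 without the farthest 2. PRC1 with KIF4A, the motor it recruits to the midzone, passed by rho alone (rho = 0.782, permutation p = 0.006, adjusted p = 0.034), r being 0.576 (permutation p = 0.066, adjusted p = 0.173). With the probe set of largest variance for each gene its rho was 0.164 and its r 0.16. None of the 6 pairs kept its rho past the adjusted threshold with those probe sets.

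NDC80 with SPC25 did not pass in the low Tag tumors (r = 0.537, permutation p = 0.09, adjusted p = 0.173) and r was 0.227 without the farthest 2. UBE2C with CDC20, which act in the same ubiquitination step, showed no relation there (r = 0.146, rho = -0.009, permutation adjusted p = 0.721 and 0.99). In the 7 high Tag tumors none of the 8 pairs passed by r or by rho (exact permutation tests). AURKB with BIRC5 came closest by rho (0.786, exact p = 0.048, adjusted p = 0.11), with r = 0.651 (exact p = 0.081, adjusted p = 0.173), which was 0.225 without the farthest 2 tumors. Left out in the same way, r rose from 0.646 to 0.906 for PRC1 with KIF4A and from 0.256 to 0.791 for NDC80 with SPC25. For UBE2C with CDC20 r rose from 0.038 to 0.267, and for the other pairs r was lower or nearly unchanged. Whether the pairs differ between the Tag sets was not tested.

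**Figure D5:**
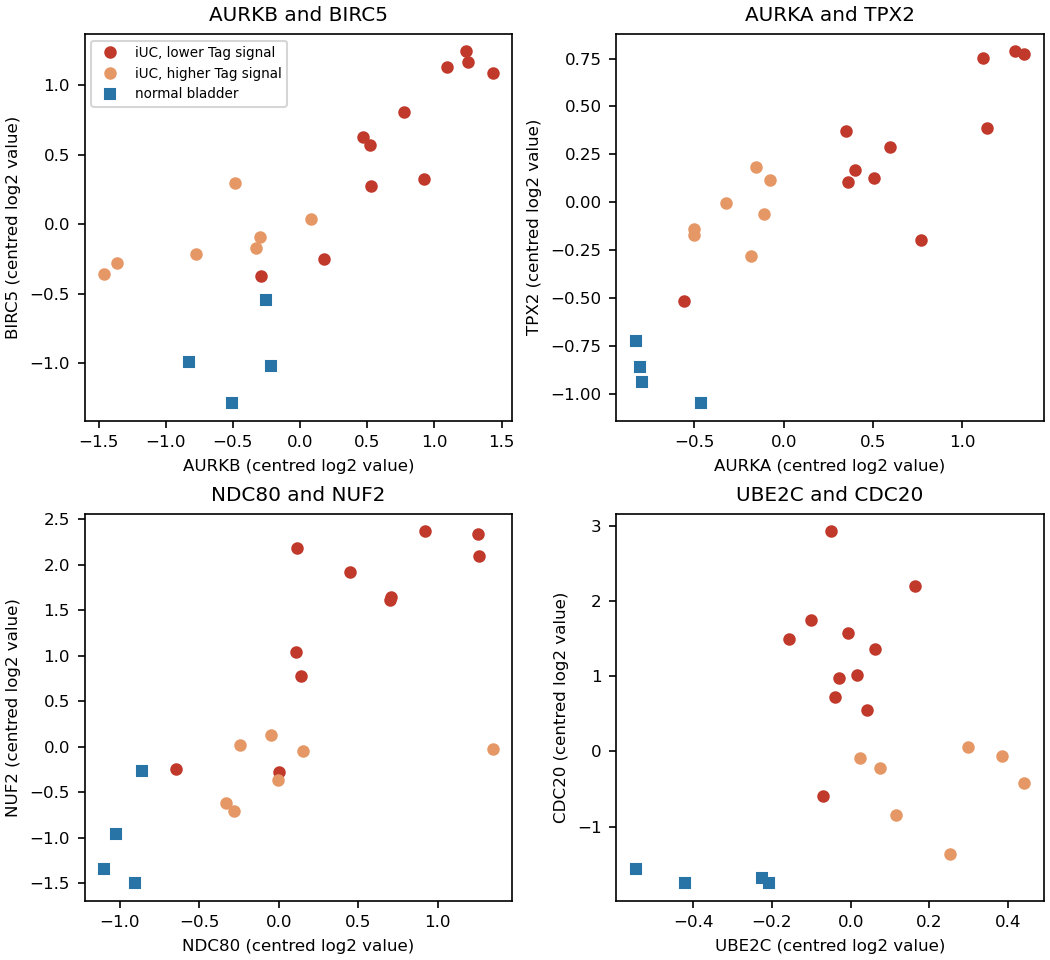
Centred log2 values of 4 of the 8 measured partner pairs against each other, 1 panel a pair and 1 point an array, with low Tag iUC, high Tag iUC and normal bladder arrays marked apart. Points of the low Tag tumors rise together for AURKB and BIRC5 (r = 0.906) and scatter for UBE2C and CDC20 (r = 0.146).

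The wider mitotic machinery was taken from lists of other kinesins, kinetochore, anaphase, condensin and cohesin, centrosome and entry genes. Of 90 other mitotic genes measured, 11 were called higher and 1 lower, against 3.68% and 8.64% of all genes. A log2 fold change above 0 was seen in 67 of the 90, and in 8573 of all 15115 genes. The median was 0.43, against 0.079 over all genes. ASPM, a spindle pole protein whose loss causes small brains, was the highest (log2 1.71 ± 0.46, limma adjusted p = 0.00735). CDCA3, a trigger of mitotic entry, was 1.64 ± 0.27, the helicase ERCC6L 1.61 ± 0.25, the transcription factor MYBL2 1.41 ± 0.23 and the condensin subunits NCAPH and NCAPG 1.39 ± 0.34 and 1.19 ± 0.33 (log2 fold change ± SE). SKA3, CDC25B, TRIP13, CENPU and GTSE1 were the other 5 called higher. CDC16, a subunit of the anaphase-promoting complex, fell by 1.00 ± 0.29 on the log2 scale (limma adjusted p = 0.012). None of 6 other mitotic kinesins was called, too few genes to set against the 3.68% and 8.64% of all genes. The difference between the 36 and the 90 was not tested.

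The mean over those 90 genes followed the mean over the 36 closely across tumors, with r = 0.979 in the low Tag and 0.972 in the high Tag set. So did DNA replication genes (r = 0.949 and 0.938). Of these, 4 of 29 were called higher, against 3.68% of all genes. They were the thymidine kinase TK1 (log2 2.61 ± 0.50), the ribonucleotide reductase subunit RRM2 (2.07 ± 0.43) and the replication factors MCM10 (1.32 ± 0.22) and MCM7 (1.01 ± 0.20). Of 7 cell cycle inhibitors measured none was called in either direction, with a median of -0.101. Over all genes 3.68% were called higher and 8.64% lower, so few calls were to be expected among 7 genes.

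Cell type markers were set against the division genes in the same way. The mean of 12 urothelial markers had r = 0.021 with the members' mean in the low Tag tumors and -0.227 in the high Tag tumors, and the 12 smooth muscle markers 0.365 and 0.75. Fibroblast markers gave 0.091 and 0.178, endothelial markers 0.072 and 0.693, T and NK cell markers -0.368 and 0.229, B and plasma cell markers -0.309 and 0.303, macrophage markers -0.418 and -0.431 and neutrophil markers 0.021 and 0.432. The mean over all genes gave -0.228 and -0.246. These values are descriptions over 11 and 7 arrays, and both sides of each come from the same arrays.

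Ranked by the lower of their 2 correlations with the members' mean, the 10 most alike genes outside the list were REXO5, NCAPG2, STMN1, GPSM2, NCAPG, ASPM, RRM2, LOC476070, TACC3 and NCAPH, all at 0.87 or above in both sets. STMN1, which destabilizes microtubules, had r = 0.897 and 0.962 and was called higher (log2 1.44 ± 0.39, limma adjusted p = 0.00723). TACC3, a spindle microtubule protein, had r = 0.928 and 0.872 without a difference from normal bladder beyond its error (log2 -0.20 ± 0.33, limma adjusted p = 0.629).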

How the data were processed

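Total RNA of 18 iUC and 4 normal bladder samples was amplified, and the amplified, biotin-labelled RNA was hybridized to Affymetrix canine 2.0 arrays. The deposited values are log2 values that the authors normalized and centred per probe set, each probe set having a median of 0 over the 22 arrays. The sources used here do not say how the arrays were brought to a common scale, and centring removes expression levels and the means to filter on them.

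Of 43035 probe sets 111 controls were removed, and 29254 of the remaining 42924 carried a single gene symbol in the platform annotation, 439 several and 13231 none. A gene's value was the mean of its single-symbol probe sets, giving 15115 genes. Groups were taken from the labels. iUC minus normal bladder was fitted with limma 3.58.1 (lmFit and eBayes, R 4.3.3) over all genes with Benjamini-Hochberg adjustment, and genes with an adjusted p up to 0.05 that differed at least 2-fold were called, after the thresholds of the study's moderated test. The fit was also run on simulated data with independent noise and the same spread in both groups. Those data held no Tag sets, label endings or correlated normal bladders, so the run says nothing about these features. Partner pairs were tested within each Tag set by two-sided permutation of pairings, exactly for 7 arrays and with 100000 permutations for 11 (SciPy 1.17.1).

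Full values were given for the 12 called members of largest log2 fold change and for AURKA, PLK1, FOXM1 and CDK1. MKI67 and CCNB1, also named by that rule, had no value. The members, gene lists and pairs were chosen with earlier results of these data known. Alternatives were quantile normalization, 75th percentile scaling, array weights, other probe set rules, leaving out samples, blocks for label ending and for replicate number, and the methods' t-test. The number of arrays limits the precision. The planned search of promoters was not run, and no sequence is shown.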

Additional observations from a re-analysis of the deposited data

Results flagged for a closer look

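AURKA in normal bladder replicate 2 stood apart from the other 3 normal bladders. It was at -0.46, against -0.83, -0.79 and -0.81 in replicates 1, 3 and 4, and was the highest of the 4 on the centred log2 scale. The 36 measured genes were each examined for such a sample among the 4 normal bladders, and chance alone gives one in about 1 of 20 groups. Without that sample the log2 fold change of AURKA was 1.11, against 1.03 with it.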

How the results depend on the processing

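None of the 36 measured division genes was called lower under any setting tried. The number called higher was 20, beside 3.68% of all genes. Under other scalings, array weights and probe set rules it was 16 to 25, beside 1.95% to 7.05% of all genes. The 16 came with quantile normalization, which lost FOXM1, TPX2, TTK and NUF2. With each normal bladder left out it was 16 to 19, beside 1.97% to 4.74% of all genes. With normal replicates 3 and 4 averaged it was 18, beside 2.06%. The methods' t-test gave 21 without and 20 with Benjamini-Hochberg adjustment, beside 4.13% and 3.45% of all genes. By the limma adjusted p alone, with no fold threshold, 28 were higher. The share of all genes at that setting was not counted, so the 28 cannot be set against it. The count fell to 1 with the label ending as a block, which leaves normal replicate 1 as the comparison, with 0.0992% of all genes called higher, against 3.68%. It was 12 with only the high Tag iUC arrays, with 7.16% of all genes called higher. With the replicate number as a block 12 were called, beside 1.42% of all genes, the median log2 fold change was 1.00 and 35 genes were above 0. Numbers shared between iUC and normal bladder do not pair dogs, and deviations of same-numbered samples correlated at -0.166, 0.055, -0.053 and 0.131. The median log2 fold change was 1.14 and ran from 0.81 with only the high Tag iUC arrays to 1.40 without them, and from 1.09 to 1.14 with each normal bladder left out. Scaling to the 75th percentile moved the median of all genes to 0.196, against 0.079, and that of the members to 1.25. Of 504 alternatives for single genes 434 kept the call, 54 lost it, 16 gained one and 0 turned a called direction. Among genes that were not called, ZWINT was -0.01 with the replicate block, and ZWINT, CKAP2 and AURKB were -0.01, -0.13 and -0.21 with only the high Tag iUC arrays. In spread between tumors, the members' median SD in low Tag tumors was 0.558, but 0.712 after quantile normalization and 0.711 with the probe set of largest variance, while in high Tag tumors it was 0.261, but 0.187 and 0.351. The cause of these shifts was not tested. After quantile normalization r no longer passed for CCNA2 with CDK1 (0.597), AURKA with TPX2 (0.753) and RACGAP1 with KIF23 (0.663), and the other 45 of 48 alternatives for r kept their call, though r of PRC1 with KIF4A was 0.16 with the probe set of largest variance in low Tag and 0.287 in high Tag tumors, against 0.576 and 0.646. For rho 36 of 48 kept their call and 12 lost it, among them all 6 passing pairs with the probe set of largest variance, where rho was 0.164 for PRC1 with KIF4A, 0.509 for NDC80 with NUF2 and 0.691 to 0.818 for the other 4. There were 4 normal bladders, 3 of them under another label ending than the tumors.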
